A study of Mus musculus with 2 samples.

Results

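The Ebf1 window was a stretch of 900 kb on mouse chromosome 11, from 44.2 to 45.1 Mb in the mm8 build, taken by position as the locus of the gene that encodes EBF1. It held 14 of the 7424 EBF1 peaks in the authors' list, and chromosome 11 held another 650. The window was chosen for its gene, and not for its read counts, though with earlier results of these data known. Ebf1 was placed at 44.4 to 44.85 Mb, a rounded stretch that came with the choice of the window and was not checked here against an mm8 annotation. The window was therefore described as a whole, then as that gene stretch of 450 kb with the 200 kb on its left and the 250 kb on its right. Below, the Ebf1 peaks, or peaks over Ebf1, are all 14 peaks of the window, those outside the gene stretch included.

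EBF1 binding was measured by chromatin immunoprecipitation and sequencing (ChIP-seq) in B cells from the spleens of adult C57BL/6 mice. The EBF1 ChIP group held 1 library, precipitated with 4 µg of a custom rabbit polyclonal antibody against mouse EBF1, and the Input group held 1 library of the same kind of cells with no antibody named. Neither group carried a further genotype or treatment in the labels, and the number of mice was not stated. Cells with CD43, AA4.1, CD4, CD8 or CD9 had been depleted, which left about 97% B220-positive cells, about 92% of them with the CD23-positive, CD21-intermediate surface of mature follicular B cells. No expression was measured, so this phenotype rests on the labels.

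EBF1 is a transcription factor that is needed to start and to keep the B cell programme. It binds DNA as a dimer, at sites whose consensus is a palindrome, through a zinc-containing domain. The Ebf1 gene is known to be read from a distal and a proximal promoter, and EBF1, E2A and PAX5 are among its known regulators in early B cells, EBF1 acting on its own gene through the distal promoter. Genes under the control of their own product can hold a cell state once it has been reached.

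In the RefSeq table of another build, GRCm38.p6, the protein-coding genes before Ebf1 were, in order, Il12b, which encodes the p40 subunit shared by IL-12 and IL-23, Ublcp1, a phosphatase that acts on proteasomes, and Rnf145, a ubiquitin ligase. The next protein-coding gene after Ebf1 was Clint1, an adaptor of clathrin-coated vesicles. Peaks near the edges of the window can thus lie in or near other genes, and none was assigned to an exon or intron of Ebf1. The RefSeq promoter table held 2 Ebf1 entries, each of 250 bases before and 50 after a start of transcription, both on the plus strand. The sequence upstream of the first is shown as a place where control of the gene by its own product could be looked for. Neither entry was labelled as the distal or the proximal promoter. The sequence shown lies at chr11:44617850-44618099 in GRCm38.p6, a position that cannot be set beside the mm8 positions used elsewhere.
Ebf1 promoter 1: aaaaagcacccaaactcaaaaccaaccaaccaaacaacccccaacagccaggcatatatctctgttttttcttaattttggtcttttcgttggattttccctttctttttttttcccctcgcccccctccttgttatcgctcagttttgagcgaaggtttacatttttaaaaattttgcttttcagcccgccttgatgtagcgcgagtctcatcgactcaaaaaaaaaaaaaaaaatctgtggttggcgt
The palindrome searched, a consensus form of the EBF1 site, is TCCC, any 2 bases and GGGA, which reads the same on both strands. It was in 0 of the 2 Ebf1 entries and in 297 of all 32851 promoters of that length (0.904%). This says only that these letters were not in those bases. The peaks could not be placed on them, and the sequence under the peaks was not analysed here.

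The ChIP library had 24337709 reads and the input 23033569 on chromosomes 1 to 19, X and Y. Within the window the libraries had 11343 and 10584 reads, and the median 1 kb bin held 12 of each. A read was counted where its 5′ end lay after moving it 100 bp towards its 3′ end. Ratios of ChIP to input were divided by 1.06, the ratio of the library totals, and carry exact conditional binomial 95% intervals. Neither they nor the floor of 3 counts, used for peaks without input reads, cover more than counting error. Reads were amplified by PCR without molecular identifiers, but copies at 1 position are not in the counts. In both libraries a chromosome, strand and 5′ position occurred only once, which also limits how high a count can go. Each group being a single library, no replicate check and no p-value was possible, and what is compared is always these libraries. A count of 0 allowed up to 0.123 RPM (reads scaled to the library's size) for ChIP and 0.130 RPM for input.

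The authors' list placed 1 strong and 13 weaker EBF1 peaks in the Ebf1 window, most of them in the gene stretch. The gene stretch held 10 peaks, the 250 kb on its right 4 and the 200 kb on its left 0. Together the 14 peaks had 284 reads in ChIP and 49 in input, at a ratio of 5.49 (4.04 to 7.59). They took 2.50% of the window's ChIP reads (2.22 to 2.81%, exact Clopper-Pearson) and 0.463% of its input reads (0.343 to 0.612%). The peaks had been called on the same ChIP reads, so a ratio above 1 follows in part from that selection.

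**Figure D1:**
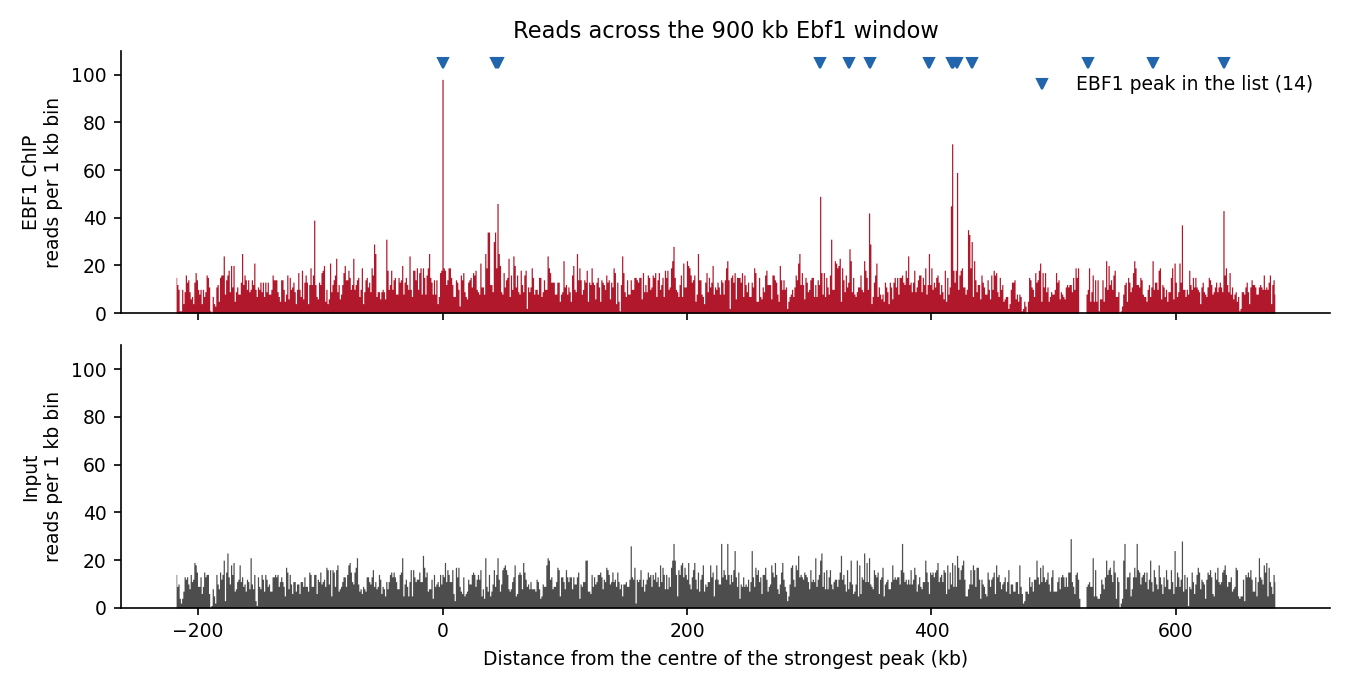
Reads per 1 kb bin of the EBF1 ChIP library (top) and the input library (bottom) across the 900 kb window, against distance in kb from the centre of the strongest peak. Triangles mark the 14 listed peaks. The ChIP bin at the strongest peak holds 98 reads, while no input bin exceeds 29.

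The strongest peak was the first along the window, at 44418421 to 44418570, close to the left end of the gene stretch. The authors' score for it was 19.03, which placed it 511th in the list, above 93.1% of all peaks. Its 150 bp had 70 reads in ChIP and 6 in input, giving a ratio of 11.04 (4.83 to 31.1), and ChIP reads filled 23.3% of the 300 positions a peak offers over both strands. The ratio was 19.9 when reads were not moved, and 6.62 (3.77 to 12.6) in 1 kb around the centre, where 98 ChIP and 14 input reads lay. Peaks elsewhere with a like score, from 18 to 20, numbered 116. Pooled, they had a ratio of 22.7 (19.9 to 26.0), with a median of 47 ChIP and 2 input reads per peak. The Ebf1 peak thus held more reads of both libraries than the median of these.

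Reads at the strongest peak were parted by strand. Plus-strand 5′ ends had their median 80 bp before the centre and minus-strand 5′ ends 58 bp after it, a distance of 138 bp between strands. Among the 116 peaks of like score the median distance was 112.5 bp, with quartiles of 101 and 123 bp. ChIP density fell from 467 reads per kb in the peak to 62.9 at 75 to 250 bp from its centre and 12 at 250 to 500 bp. Input density over the same zones was 40.0, 11.4 and 8.00 reads per kb, which rests on 14 input reads.

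A pair of peaks lay 43 to 45 kb to the right of the strongest one. In the peak at 44461771 to 44461920 (score 6.21), 13 ChIP reads stood over 2 input reads, at a ratio of 6.15 (1.39 to 56.1). Its partner at 44463801 to 44463950 (score 8.22) had 18 over 4, at a ratio of 4.26 (1.40 to 17.3). The second interval lay within the first, so neither peak could be called the stronger at this depth. The 50 kb segment that held them, from 44450001, had the highest ratio outside peaks of the 18 segments in the window, 1.25 (1.10 to 1.41).

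The middle of the gene stretch held no listed peak. From 44463951 to 44727260, over 263 kb, none was called. Such a gap was not rare on chromosome 11, where 95 of the 663 distances between neighbouring peaks were longer and the median was 45.2 kb. In the 4 segments that lie wholly inside this gap the ratio outside peaks ran from 0.924 to 0.997.

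Most weaker peaks lay in the right part of the gene stretch, with 7 between 44727261 and 44839540. Going right, the first 3 were spread out. In the peak at 44727261 to 44727410 (score 8.14), 19 ChIP reads stood over 4 input reads, a 4.50-fold excess (1.49 to 18.2). The peak at 44751361 to 44751510 (score 7.06) had 10 over 1, for a ratio of 9.46 (1.35 to 411). The peak at 44767841 to 44767990 (score 7.70) had 20 over 6, for a ratio of 3.15 (1.22 to 9.60). The intervals of these 3 overlapped, and the highest of the ratios rests on a single input read. Another peak followed at 44816251 to 44816400 (score 6.34). It held 7 ChIP reads, the fewest of the 14, and 0 input reads. That is 2.21 times the floor of 3 input counts, with a lower end of 1.36 for its exact interval, where the ChIP count has an error too.

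The group with the most peaks, counting neighbours within 10 kb, was formed by 3 peaks within 4.63 kb. The peak at 44835721 to 44835870 had the second highest score of the window, 9.48, with 26 ChIP reads over 6 input reads (ratio 4.10, 1.65 to 12.2). The peak at 44839391 to 44839540 (score 7.82) had 28 over 4 (ratio 6.62, 2.32 to 26.0). The peak at 44834911 to 44835060, 660 bp from the former, (score 6.22) had 15 over 9. Its ratio of 1.58 had an interval of 0.647 to 4.09, and this was the 1 peak of the 14 not above input in its 150 bp. In 1 kb around its centre it had 48 over 15 (ratio 3.03, 1.67 to 5.82).

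To the right of the gene stretch the peak at 45057631 to 45057780 (score 7.61) had 24 ChIP reads over 3 input reads (ratio 7.57, 2.30 to 39.3). The other 3 on that side had the lowest scores of the window, from 5.19 to 5.55, with 8 to 14 ChIP and 0 to 3 input reads. The one without input reads, at 44946971 to 44947120, stood at 2.52 times the floor, with a lower interval end of 1.62.

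**Figure D2:**
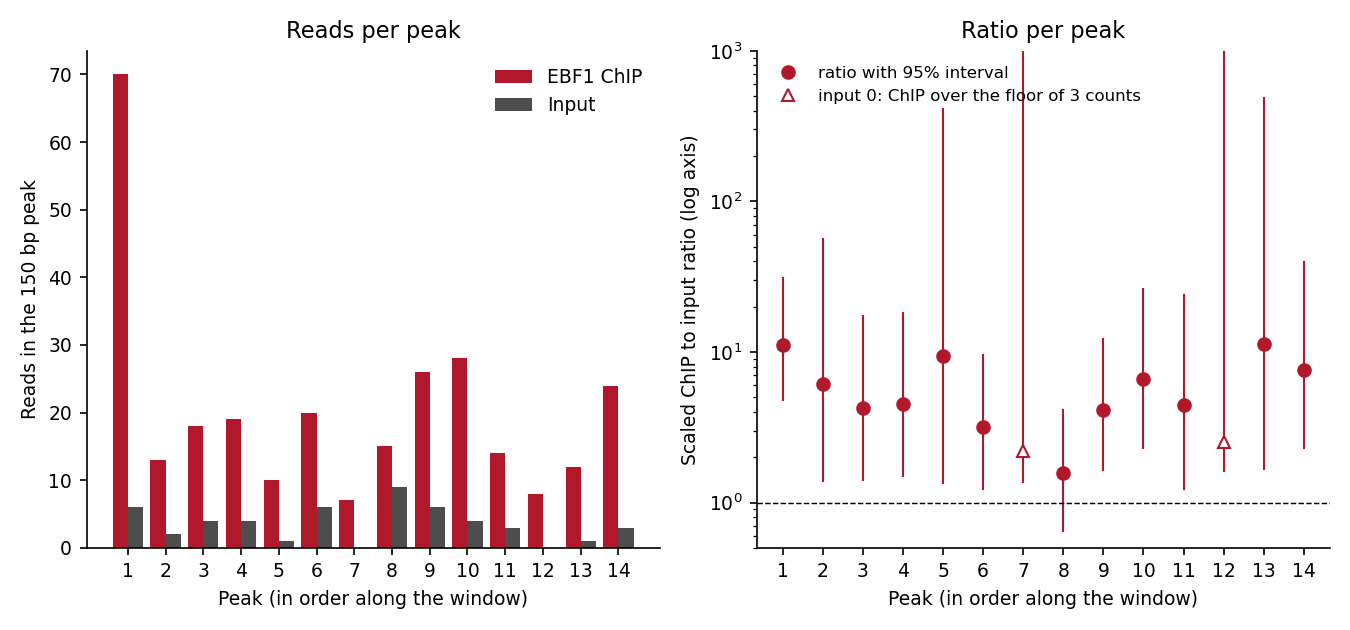
Left, reads of each library in the 150 bp of each of the 14 peaks, in order along the window. Right, the scaled ChIP to input ratio on a log axis with its exact 95% interval, with open triangles for the 2 peaks without input reads (ChIP over the floor of 3 counts, upper interval end not drawn to its full length) and a dashed line at 1. Peak 1 holds 70 ChIP reads, the others 7 to 28, and only the interval of peak 8 reaches below 1.

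Taken 1 by 1, 13 of the 14 peaks had an interval above 1, against 86.6% of all peaks in the list. The count was 12 with reads not moved or counted in 1 kb around the centre, and 14 with reads moved by 50 bp. In 1 kb the peaks that failed were those at 44751361 (1.83, 0.924 to 3.77) and 44946971 (1.80, 0.796 to 4.33). An interval above 2 was reached by 3 of the 14, against 38.3% of all peaks. Scores of 10 or more were found for 1 of the 14, against 18.9%. Yet 11 of the 14 lay above the list's median score of 6.07, and their own median was 7.34. The peaks of the window therefore had mid-range scores, with the second highest, 9.48, close under 10. Those below the list's median, from 5.19 to 5.55, all lay to the right of the gene stretch. Pooled, the ratio was 5.09 (3.65 to 7.26) in the gene stretch and 7.84 (3.57 to 20.4) on its right, with overlapping intervals.

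Against the other peaks of chromosome 11 the pooled ratio of the Ebf1 peaks depended on which of those were taken. The chromosome's other 650 peaks had a ratio of 6.44 (6.16 to 6.75), and the Ebf1 value was 0.851 of it, with an exact conditional interval of 0.624 to 1.18. Of the 650, 27 lay in stretches with 50 or more input reads in the 1 kb around the centre and had a ratio of 1.85 (1.72 to 1.98), while the Ebf1 peaks had 5 to 23. The 623 peaks without them had a ratio of 11.8 (11.1 to 12.7), and the Ebf1 value was 0.463 of that (0.338 to 0.645), or 0.398 (0.283 to 0.569) without the strongest Ebf1 peak. Against peaks outside high-input stretches, the Ebf1 peaks were thus lower beyond counting error with reads moved by 100 bp. The window's own pooled ratio was 6.78 with reads not moved and 7.43 with reads moved by 50 bp. The contrast with other peaks was not repeated at those settings. The limit of 50 reads was chosen with earlier results known, and how peaks vary among themselves is left out of the interval. Without the strongest peak, which left only scores under 10, the window's ratio was 4.71 (3.38 to 6.70). The 623 peaks kept 124 with a score of at least 10, so that contrast was not between peaks of like score. Peaks elsewhere in the list with a score under 10, high-input stretches included, had a ratio of 6.66 (6.53 to 6.80). That interval overlapped the one of the window's weaker peaks. Counting over 1 kb around each centre gave 2.96 for the window.

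The Ebf1 peaks held more input as well as more ChIP reads than the list's median peak. The median Ebf1-window peak held 16.5 ChIP and 3.50 input reads, against 12 and 1 over the list. Input density in the 14 peaks was 23.3 reads per kb, and 11.7 in the window at least 2 kb from any peak, a fold of 2.00 (exact Poisson interval for the reads in peaks, 1.48 to 2.65). The same fold was 1.05 (0.943 to 1.17) over the 15 other windows of 900 kb on chromosome 11 with 12 to 16 peaks, and ran from 0.518 to 1.496 among them, so that 0 of 15 exceeded the Ebf1 window. It was 1.76 for Ebf1 with reads not moved and 1.88 with reads moved by 50 bp, with 0 of 15 above it in either case. This comparison was chosen after the values had been seen, and what raises the input was not tested. Of the 49 input reads in peaks, 42 lay in the 10 peaks of the gene stretch and 7 in the 4 on its right. Outside peaks the gene stretch had 4958 input reads in 407 bins, and the part on its right 2573 in 230. The excess of input in peaks thus lay mainly in the gene stretch.

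Strands lay closer together in most weaker peaks of the gene stretch than in the median weak peak elsewhere. In 13 of the 14 peaks the median minus-strand 5′ end lay to the right of the median plus-strand end, against 99.0% of the list, and the peak at 44751361 was the exception with 24 reads. Over the 13 peaks with a score under 10 the median distance was 50 bp, with quartiles of 31 and 104 bp. Over 6007 peaks elsewhere with a score under 10 it was 104.5 bp, with quartiles of 74.5 and 136 bp. In the other 12 of these 13 the distance ran from 17 bp in the peak at 44839391 to 128.5 bp in the peak at 44946971, and each of the 13 rests on 16 to 54 reads. Among the weaker peaks of the gene stretch only the pair at 44461771 and 44463801 had more than 50 bp, namely 109 and 74 bp. The 4 peaks to the right of the gene stretch had 68, 128.5, 120 and 104 bp, around the median elsewhere. A short distance was not particular to Ebf1. The 27 other peaks of chromosome 11 in high-input stretches, of any score, had a median distance of 56 bp (quartiles 39.25 and 84.25 bp). The 623 outside such stretches had 107.5 bp (81.25 and 130.5 bp). These differences were not tested, since peaks of 1 library are not replicates.

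**Figure D3:**
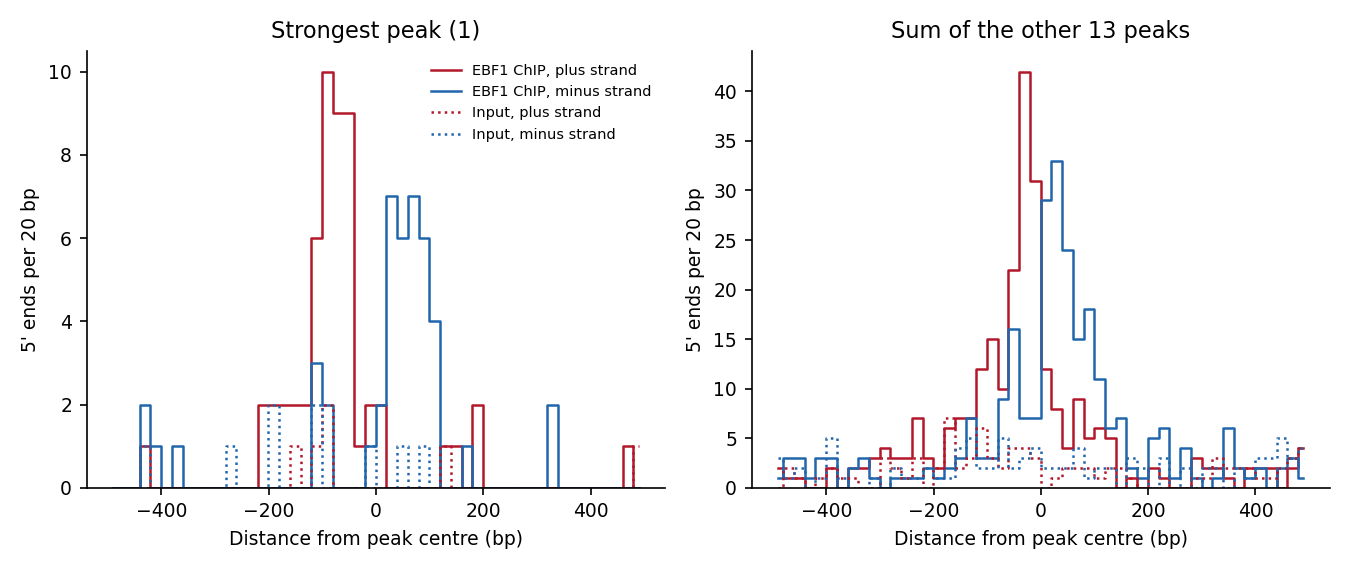
5′ ends per 20 bp by strand around the centre of the strongest peak (left) and summed over the other 13 peaks of the window (right), with reads not moved. Solid lines are the ChIP library and dotted lines the input. Plus-strand and minus-strand ends stand 138 bp apart (medians) at the strongest peak and lie closer together in the sum of the others.

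By number of peaks the Ebf1 window was among the richest on chromosome 11. Of 131 other windows of 900 kb laid end to end with it, each with at least 2000 input reads, 10 held more peaks, 3 held 14 as well, and 118 held fewer. The median window held 3 peaks and the richest 31. By the highest score it stood lower, with 28 windows above 19.03 and 103 below. By peaks with a score of at least 10 29 windows stood above its 1 peak, 30 were equal and 72 below. Among the 15 windows with 12 to 16 peaks, 12 had more such peaks, 3 as many and 0 fewer. The share of its ChIP reads in peaks, 2.50%, was exceeded in 8 windows, against a median of 0.472%. All windows share the same pair of libraries, so these places are a description.

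Outside its peaks the Ebf1 window had a lower ChIP to input ratio than the other windows with about as many peaks. At least 2 kb from any peak its ratio was 0.974 (0.947 to 1.00), below 88 of the 131 other windows and above 43. In the 15 windows with 12 to 16 peaks that ratio ran from 1.12 to 1.48, with a median of 1.26, so all 15 lay above Ebf1 and none of their intervals reached its own. Both libraries entered this. ChIP reads per 1 kb bin outside peaks were 12 over Ebf1, under all 15 of these windows (12.5 to 15.9, median 13.7) and over all 33 windows with 0 peaks (6.20 to 11.1). Input reads per bin were 11.7 over Ebf1, above all 15 (9.48 to 10.8, median 9.99). By ratio, the 33 windows with 0 peaks ran from 0.763 up to 1.09, with a median of 0.850, and the 54 windows with 1 to 5 peaks had a median of 1.08. The adjoining windows had ratios of 1.04 (left, 3 peaks) and 0.997 (right, 0 peaks). The interval of the right one, 0.969 to 1.03, overlapped that of Ebf1. The SD over the 131 windows was 0.175. Among windows with 10 to 18 peaks (24 windows) the lowest ratio was 1.10, among windows shifted by 450 kb (6 with 12 to 16 peaks) 1.12, and among those of all autosomes (75 such windows) 1.05, so that 0 were below Ebf1 in each. The like windows were chosen after the values had been seen.

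The window also held more input than nearly all others. Its 10584 input reads were exceeded in 1 of the 131 windows, against a median of 8676 and quartiles of 8280.5 and 8973, while 99.2% of its 1 kb bins held an input read, against a median of 98.6%. In the 15 windows of like peak number the input ran from 8655 to 9736 reads.

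**Figure D4:**
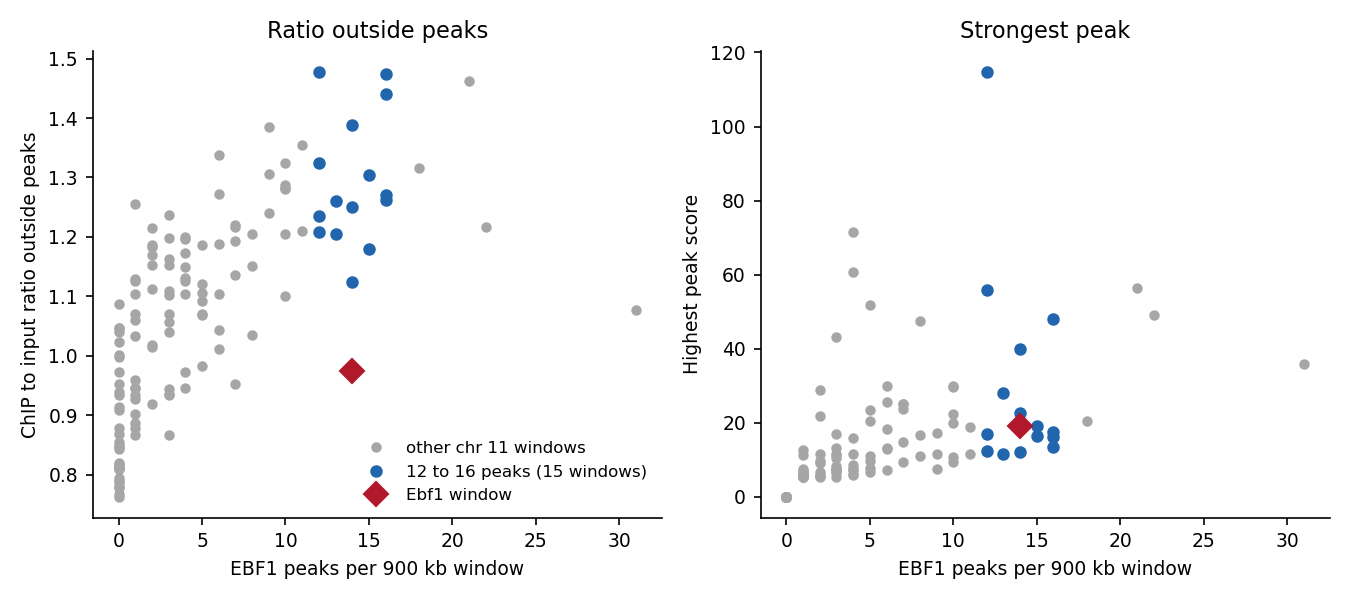
Windows of 900 kb on chromosome 11 by their number of listed EBF1 peaks, with the ChIP to input ratio outside peaks (left) and the highest peak score (right). The Ebf1 window is the diamond, and the 15 windows with 12 to 16 peaks are dark points. On the left the diamond lies at 0.974, under all 15, and on the right it lies within their range of 11.5 to 114.7.

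Within the window the ratio outside peaks was lowest on the right. It was 1.03 (0.971 to 1.09) in the 200 kb left of the gene stretch, 0.997 (0.959 to 1.04) in the gene stretch and 0.883 (0.835 to 0.934) in the 250 kb on its right. The gene stretch was 1.13 times the right part (exact conditional interval 1.05 to 1.21) and 0.969 times the left part (0.904 to 1.04). The left part, without any peak, was thus not separated from the gene stretch with 10. In segments of 50 kb the ratio ran from 0.831 to 1.25, and 0 of the 18 exceeded 1.49, the 95th percentile of 2349 segments in the other windows of the chromosome. Their SD of 0.107 was below the median of 0.135 among the other windows.

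**Figure D5:**
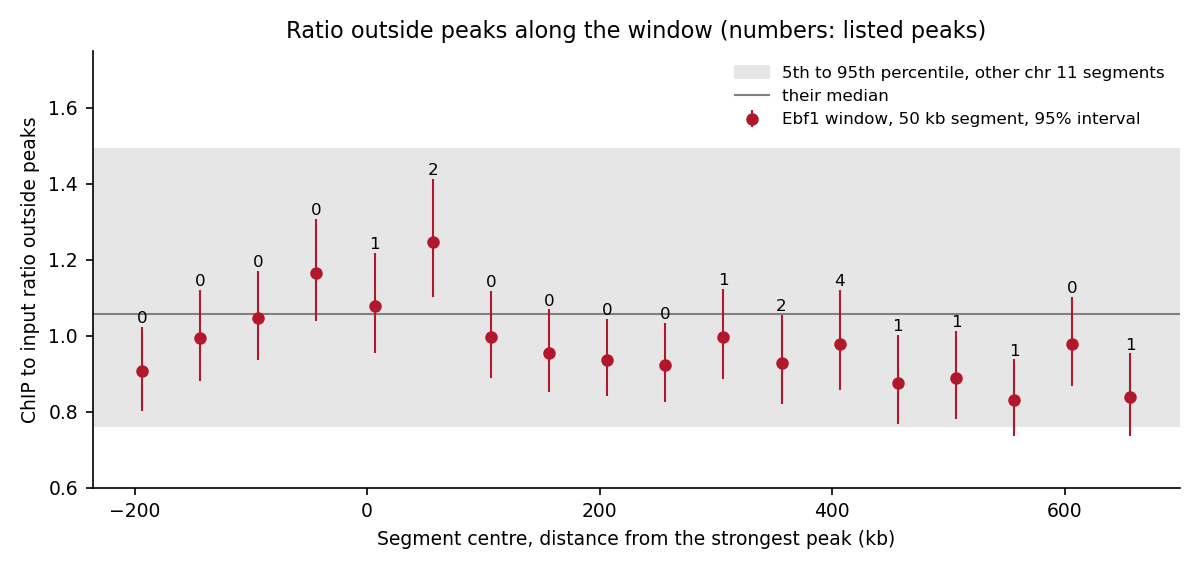
ChIP to input ratio at least 2 kb from any peak in the 18 segments of 50 kb across the window, with exact 95% intervals, against the distance of each segment's centre from the strongest peak. The number above each point counts the listed peaks, the grey band is the 5th to 95th percentile (0.762 to 1.49) of the other chromosome 11 segments and the line their median (1.06). The highest point, 1.25, is the segment with the pair of peaks.

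ChIP reads outside the listed peaks gave little further enrichment over Ebf1. Of 879 bins of 1 kb outside peaks, 0 reached 20 ChIP reads together with a ratio of 5, which allows a share of up to 0.341%, against 0.0881% of such bins over all chromosomes. A count of 0 is common at that rate, and 59 of the 131 other windows had 0 as well. The bin with the most ChIP reads outside the peaks lay at 44313001 to 44314000, left of the gene stretch, with 39 ChIP reads over 14 input reads (ratio 2.64, 1.40 to 5.26). Bins of 500 bp that reached 10 ChIP reads and a ratio of 5 numbered 10 of 1758 (0.569%), against 0.655% over all chromosomes, and 5 when the libraries were exchanged. The share was thus near the background. The 5 with the most ChIP reads held 13 to 27. The bin with the most reads was at 44455501 to 44456000, with 27 over 3 (ratio 8.52, 2.62 to 43.9), 5771 bp to the left of the pair of peaks. The highest ratio of the 10 was 18.0 (2.86 to 747), at 44848001 to 44848500 in the gene stretch. It rests on 19 ChIP reads over 1 input read. Bins picked for their ratio have it raised by that choice.

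Grouping of the peaks over Ebf1 was not separated from that of the chromosome. A neighbour within 10 kb was found for 5 of the 14 peaks (35.7%, exact interval 12.8 to 64.9%), namely the pair and the group of 3, and for 247 of the other 650 on chromosome 11 (38.0%, 34.3 to 41.9%). With 14 peaks, only a large difference in this share could be seen.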

How the data were processed

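The authors deposited aligned reads of 35 bp for 1 EBF1 ChIP and 1 input library, and a list of peaks of 150 bp with a score per peak. The deposited score is the peak caller's own value on a scale not defined in the file, and was used only to describe and rank peaks. Per the submitters' processing notes the build is mm8, and HOMER is named with no role. Which aligner and filters were used, and whether the input served as control in peak calling, is not given in the sources used here. Each chromosome, strand and 5′ position occurred once per library, which caps a peak at 300 reads.

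Reads were counted in peaks, in 1 kb bins and in windows of 900 kb laid end to end from the Ebf1 window. Peaks were assigned by their centre. Bins outside peaks lay at least 2 kb from any peak, and enriched bins did not overlap one. Strand medians used reads up to 150 bp beyond the peak. All 14 peaks were covered, the 10 with the highest score in full, with the partner of 1 of them. Alternatives were other read shifts, scaling, counting widths, score limits, window placements and bin limits. The window and the measures were chosen with earlier results of these data known. Software was matplotlib 3.10.9, scipy 1.17.1, pandas 2.3.3, numpy 2.4.6 and Python 3.11.15. Ratios with planted values were tested on simulated data.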

Additional observations from a re-analysis of the deposited data

How the results depend on the processing

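Shares and ratios were taken as moved when they left the 95% interval of the reported value, and counts and places among windows when they changed by more than 1.5 times. By these measures 11 values moved, 42 did not, and 0 turned in direction. The share of the window's ChIP reads in peaks was 3.18% with reads moved by 50 bp, 3.36% in 200 bp and 5.46% in 1 kb around the centres, where neighbouring stretches overlap. The pooled ratio was 2.96 in 1 kb, and 11.04 with a score of at least 10, which left 1 peak by construction. That limit also took the share of chromosome 11 windows with fewer peaks from 90.1% to 55.0%. Windows with a lower ratio outside peaks made up 32.8% on chromosome 11 and 51.2% of 2640 on all autosomes. The Ebf1 window thus passed from below the middle of the windows to just above it, which was counted as moved. Enriched bins outside peaks numbered 0 at 1 kb and 10 at 500 bp with at least 10 ChIP reads. The Ebf1 ratio relative to the chromosome's other peaks, 0.851, was 0.463 without peaks in high-input stretches, and 0.398 when the strongest Ebf1 peak was left out too. The cause of the remaining shifts was not tested. The alternatives without the strongest peak or high-input peaks, for input in peaks and for windows of like peak number were chosen after seeing the data. No paired analysis was possible because there was just 1 library of each kind. Depth limits single peaks, which held 7 to 70 ChIP reads.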
